A study of Mus musculus with 3 samples.

Results

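Beta cells, the insulin-producing cells of the pancreatic islet, were compared between mice that had recovered from S961 and mice still under it. S961 is a peptide antagonist of the insulin receptor. Barcodes counted as beta cells when 500 genes or more were detected and no more than 20% of transcripts were mitochondrial, with the insulin genes Ins1 and Ins2 at 15% or more of the unique molecular identifiers (UMIs, the count of captured transcripts). The genes of the other islet hormones Gcg, Sst and Ppy each had to stay under 1%. Barcodes led by the pseudogene Ftl1-ps1, with 5 or more UMIs of Ftl1 and Ftl1-ps1 and 50% or more of them from the pseudogene, were left out. This gave 3622 beta cells among the 24590 barcodes of the study, 1559 in the S961 library and 2063 in the recovered library. The control library held 2846 such cells, whose values are given beside the comparison.

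All mice were male C57Bl6/J retired breeders aged 7 to 8 months. Pumps were implanted for 2 weeks, without S961 in controls and with S961 at a labelled 20 nM per week in treated mice. In recovered mice the pumps had been taken out, but neither the length of recovery nor the number of mice behind a library is given in the sources used here. Islets were cultured overnight and dissociated with TrypLE before droplet capture of 3' transcript ends on the 10x platform, so RNA was taken after a night in culture. Each group had 1 library. Every difference is therefore one between libraries, and all intervals are 95% intervals of counting error only.

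Blocking the insulin receptor raises blood glucose and the demand for insulin. Beta cells take glucose up through the transporter Slc2a2 and break it down; the resulting ATP closes potassium channels and lets calcium trigger the release of insulin granules. Mature beta cells depend on transcription factors such as Pdx1, Nkx6-1 and Mafa. Under lasting metabolic load they can lose mature markers, gain Aldh1a3 and hormones of immature cells, and raise cell cycle inhibitors such as Cdkn1a, which encodes p21.

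The cells of the libraries differed in depth and quality. Median UMIs per beta cell were 13509 in the S961 library, 10288 in the recovered and 7622 in the control library, with medians of 3307, 2753 and 2207 detected genes. The S961 cells also had a shallow arm: 27.7% were under 5000 UMIs, against 17.4% in control and 8.29% in recovered. Mitochondrial transcripts took medians of 6.90%, 4.37% and 7.31% in control, S961 and recovered beta cells, all within the rule's limit. Over all barcodes, before the rule, the medians were 26.4%, 5.82% and 23.1%, so S961 was the library apart on this measure. In recovered beta cells 7 of the 13 measured mitochondrial genes were at least 1.5-fold higher, which the rule's mitochondrial limit touches. In these libraries, 11 barcodes were shared by S961 and recovered, 1 of them a beta cell in both. Just inside the limit on insulin, at 15 to 16% of UMIs, lay 6 S961 and 18 recovered cells, and 10 and 12 cells lay just outside, at 14 to 15%. For the limit on mitochondrial UMIs, 3 and 33 cells were within 1 percentage point inside, and 4 and 22 outside.

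**Figure D1:**
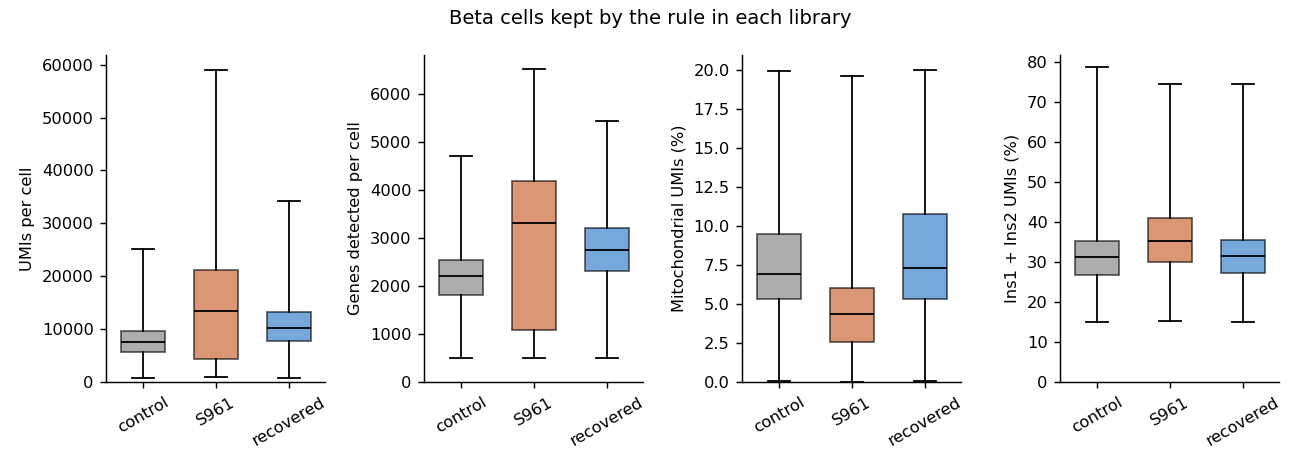
Box plots of UMIs per cell, detected genes per cell, mitochondrial UMIs (%) and insulin UMIs (%) for the beta cells of the control, S961 and recovered libraries; boxes span the quartiles with the median as a line, and whiskers reach the lowest and highest cell. S961 cells had the widest range of depth and the lowest mitochondrial median, at 4.37%, and insulin medians were 31.2%, 35.2% and 31.5%.

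RNA of other cell types also differed, above all that of acinar cells, which make digestive enzymes. The 17 acinar markers found in the table summed to 102 CPM (UMIs of a gene scaled to a total of 1000000) in control beta cells, 2205 in S961 and 232 in recovered, and all 16 measured markers were lower in recovered. Most of it sat in few cells: 88.7% of these S961 UMIs came from the 5% of cells with the most, and 32 S961 cells against 1 recovered cell held acinar markers at 1% or more of UMIs. B or plasma cell markers summed to 180 CPM in S961 and 6.08 in recovered, alpha markers to 1724 and 1046, endothelial markers to 39.8 and 13.1, stellate markers to 23.5 and 2.64, and macrophage markers to 87.6 and 52.6. Delta markers went the other way, at 58.6 and 110 CPM. Of the defining markers, Lyz2, C1qb, C1qc, Adgre1 and Itgax were at 0 in recovered beta cells, Lum and Pdgfra were at 0 in both libraries, and no acinar marker was at 0 in either. Ins1, Ins2 and Iapp made up 435298 CPM in S961 and 402745 in recovered cells, a sum that the rule on insulin largely fixed and that checks nothing. Iapp alone, which the rule did not use, was at 88525 and 85361 CPM, against 20348 and 24996 CPM in the other cells. Leaving out cells with 0.2% or more of UMIs from the markers of alpha, delta, endothelial, stellate, macrophage, T, B and acinar cells kept 778 of 1559 S961 and 1715 of 2063 recovered cells. Where a gene named here lost or gained its call in the kept cells, in cells thinned to 5000 UMIs or in cells with 4 to 7% mitochondrial UMIs, that value stands in the account of its group, genes that only dropped under the minimum of UMIs aside. Beyond these values, the part of depth, mitochondrial share and other cells' RNA in the differences was not tested.

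Recovered beta cells held more RNA of several mature beta-cell genes than S961 cells. They held less of the antioxidant Gpx3, of several immature-state genes such as Aldh1a3, of Cdkn1a and of the granins Scg2 and Chgb. UMIs were summed over the beta cells of a library, 22259919 in S961 and 22383328 in recovered, and scaled to CPM. Of 10757 genes with at least 100 UMIs over both libraries, 335 (3.11%) were at least 1.5-fold higher in recovered cells and 303 (2.82%) at least 1.5-fold lower, while 10119 (94.1%) were neither. Past 2-fold, 53 were higher and 117 lower. The median log2 ratio of recovered over S961 was 0.09, with quartiles at -0.08 and 0.24. The balance between higher and lower genes depended on the scaling: with median-of-ratios factors 196 were higher and 404 lower, and with TMM factors 233 and 373. With each cell thinned to 5000 UMIs, 274 of 8764 genes (3.13%) were higher and 203 (2.32%) lower. Without the cells carrying other cell types' RNA, 243 of 10209 (2.38%) were higher and 237 (2.32%) lower. Among cells with 4 to 7% mitochondrial UMIs, 143 of 9491 (1.51%) were higher and 215 (2.27%) lower. Of the 303 lower genes, 30 were markers of other cell types and 81 lay under 10% of their level in the other cells of the S961 library; of the 335 higher genes, 4 and 3 did.

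**Figure D2:**
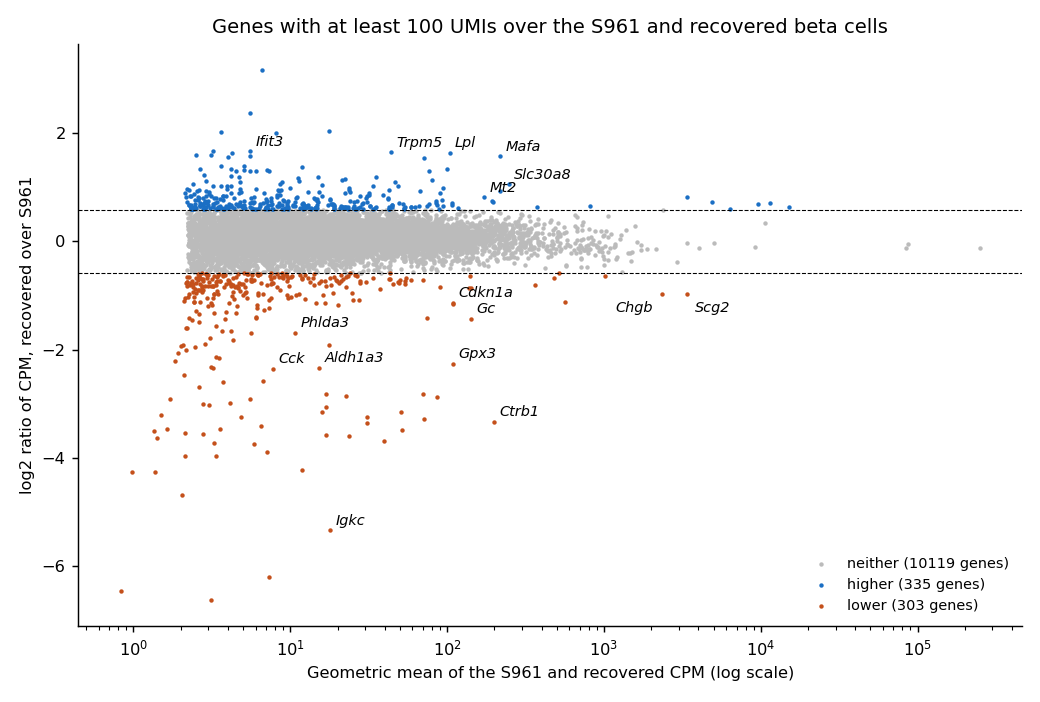
Log2 ratio of CPM, recovered over S961 (vertical axis), against the geometric mean CPM of both libraries (horizontal log axis) for the 10757 measured genes; dashed lines mark 1.5-fold and colours the 335 higher and 303 lower genes. Acinar and immunoglobulin genes such as Ctrb1 and Igkc lie among the lowest ratios, apart from Gpx3, Aldh1a3, Gc and Cdkn1a.

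Among transcription factors of the beta cell, Mafa, which activates the insulin genes, differed most. Its level was 355 CPM in control, 127 in S961 and 376 in recovered beta cells, a log2 ratio of 1.57 (1.51 to 1.63) or 2.97-fold (2.85 to 3.10). The S961 library was the low one, and the intervals of S961 and recovered did not overlap. Mafa lies on chromosome 15 from 75745490 to 75748228 (GRCm38). Pdx1, the pancreatic master regulator, stood at 111, 71.7 and 109 CPM (log2 ratio 0.60, 0.51 to 0.70), but at 0.48 with thinned cells and 0.42 among cells with 4 to 7% mitochondrial UMIs, both under 1.5-fold, as was the 0.54 without the cells carrying other cell types' RNA. Nkx6-1, which keeps the beta identity, was at 193, 162 and 221 CPM (0.45), and Neurod1 at 129, 124 and 136 CPM (0.13). Among the lower members was Sox4, a progenitor factor, at 75.9 against 46.1 CPM (-0.72). Of the 22 measured factors 2 passed 1.5-fold upward and 2 downward, and the median log2 ratio was 0.15 against 0.09 over all genes.

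Genes of glucose uptake, signalling and membrane excitability were higher in 7 of 31 measured members and lower in 1, with a median of 0.25. Slc2a2, through which rodent beta cells take up glucose, stood at 99.8 CPM in control, 41.9 in S961 and 122 in recovered cells. That is 2.92-fold (2.71 to 3.15) more in recovered cells, whose level also lay above control. Trpm5, a cation channel opened by calcium, was at 82.5, 24.6 and 77.0 CPM, 3.13-fold (2.84 to 3.45) higher. Gipr, the receptor of the gut hormone GIP, was at 28.2, 14.3 and 31.5 CPM (log2 ratio 1.14), though at 0.49 among cells with 4 to 7% mitochondrial UMIs. Its partner among incretin receptors, Glp1r, held 109 and 98 UMIs in S961 and recovered cells, and its interval spanned 0 (-0.16, -0.57 to 0.25). Thinned cells gave -0.59 for Glp1r, with UMIs under the minimum.

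Further higher members included Prss53 at 158 against 299 CPM (0.93), Pcx, which encodes the pyruvate carboxylase that refills the citrate cycle, at 20.8 against 37.4 CPM (0.84), and the peptide receptor gene Vipr1 at 14.4 against 23.2 CPM (0.69). Pcx (0.50) and Vipr1 (0.31) were under 1.5-fold among cells with 4 to 7% mitochondrial UMIs, and Vipr1 was so with thinned cells (0.56). G6pc2, which removes the phosphate from phosphorylated glucose, was at 389, 331 and 439 CPM (0.41). The subunits of the ATP-sensitive potassium channel differed little, with Kcnj11 at 0.30 and Abcc8 at 0.09, as did the calcium channel genes Cacna1d (0.05), Cacna1c (0.13) and Cacna1a (0.25). Tmem37, a calcium channel subunit, was the lower member, at 4.63, 9.84 and 3.66 CPM (-1.43). Without the cells carrying other cell types' RNA the counts were again 7 higher and 1 lower of 31, and among cells with 4 to 7% mitochondrial UMIs 3 and 1 of 29.

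Genes of the secretory granule differed in both directions: of 34 measured, 7 were higher and 3 lower, and the median was 0.09, equal to that of all genes. Slc30a8, which loads zinc into insulin granules, was at 265, 171 and 355 CPM in control, S961 and recovered cells, 2.08-fold (2.00 to 2.16) higher than in S961 and above control. Sytl4, a granule protein that takes part in docking, was at 111, 54.2 and 119 CPM (log2 ratio 1.13, 1.03 to 1.23). Ucn3, a peptide hormone of mature beta cells, was at 96.2, 85.4 and 136 CPM (0.67, 0.59 to 0.76). It passed 1.5-fold over S961 although S961 and control were close, and stood at 0.40 among cells with 4 to 7% mitochondrial UMIs. Gad1, which makes GABA, was at 23.05 against 41.1 CPM (0.84), and Nnat at 1.66 against 4.20 CPM (1.34). Slc18a1, a vesicular monoamine transporter, held 135 and 218 UMIs (0.68). Npy, the neuropeptide, held 49 and 93 UMIs (0.92), but stood at -0.12 with thinned cells and 4.71 among cells with 4 to 7% mitochondrial UMIs, a spread that leaves its direction unstable. The value of 4.71 rested on UMIs under the minimum. Gad1 (0.56) and Slc18a1 (0.58) were just under 1.5-fold among cells with 4 to 7% mitochondrial UMIs.

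The lower granule genes were the granins Scg2 and Chgb, acidic proteins that help granules form, and Pam, which amidates peptide hormones. Scg2 was at 2287 CPM in control, 4766 in S961 and 2417 in recovered cells, 1.97-fold (1.95 to 1.99) more in S961 than in recovered. Chgb was at 1673, 3284 and 1670 CPM, also 1.97-fold (1.94 to 1.99). The recovered level of each lay close to control, while S961 was the high library. Pam followed at 374, 605 and 377 CPM (-0.68). The third classical granin, Chga, was at -0.02, and Vgf, Scg3 and Scg5 at -0.25, -0.18 and -0.44. The processing enzymes Pcsk1 (0.18), Pcsk2 (0.28) and Cpe (-0.22) were neither. Iapp, which encodes amylin and was not used by the rule, was at 92052, 88525 and 85361 CPM (-0.05). The insulin genes, used by the rule, are given as a description only: Ins1 at 83926, 87418 and 80082 CPM and Ins2 at 229662, 259354 and 237303 CPM.

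Scg2 and Chgb are shown with sequence because they differed by nearly the same factor and carry the same motif near their starts. The cAMP response element in its full palindrome (CRE, TGACGTCA, which reads the same on both strands) is the known site of CREB-family factors. In the 250 bases before the RefSeq start (GRCm38.p6) it lies 68 to 61 bases before that of Scg2 and 72 to 65 bases before that of Chgb. In GENCODE M21 both genes begin farther upstream, so these bases also lie within the annotated genes. Whether they lie in an exon was not tested. The stretches are chr1:79440076-79440105 on the minus strand for Scg2 and chr2:132781559-132781588 on the plus strand for Chgb, given here with the CRE in capitals.
Scg2: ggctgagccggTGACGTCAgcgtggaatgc
Chgb: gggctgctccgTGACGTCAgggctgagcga
The element was found in 1.55% of all 32851 promoters in the RefSeq table, and in 3.54% of the 8448 measured genes that have one. Among lower genes 8 of 224 (3.57%) had it and among higher genes 4 of 239 (1.67%). A match is a description of the letters, not evidence of binding.

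Several other genes were among the 12 highest ratios. Lpl, lipoprotein lipase, which frees fatty acids from circulating fat, was at 138 CPM in control, 58.9 in S961 and 183 in recovered cells. The ratio was 3.10-fold (2.92 to 3.30), and the recovered level was above that of control. Lpl lies on chromosome 8 from 68880491 to 68907448, and its level in the other cells was 141 CPM in S961 and 163 in recovered. Ppp1r1a, an inhibitor of protein phosphatase 1 that acts in cAMP signalling, was at 132, 62.8 and 159 CPM (1.34), and Fam151a at 108, 48.8 and 119 CPM (1.29). Maob, a monoamine oxidase, was at 49.4, 23.4 and 53.6 CPM (1.20). Robo2, a guidance receptor that takes part in islet architecture, was at 50.7, 31.9 and 67.8 CPM (1.09). Upp1, uridine phosphorylase, was at 24.8, 14.9 and 32.9 CPM (1.14), below its 124 and 113 CPM in other cells. All 12 kept a ratio of at least 1.5-fold under each of the 18 alternatives that give gene values, except Gipr as stated.

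**Figure D3:**
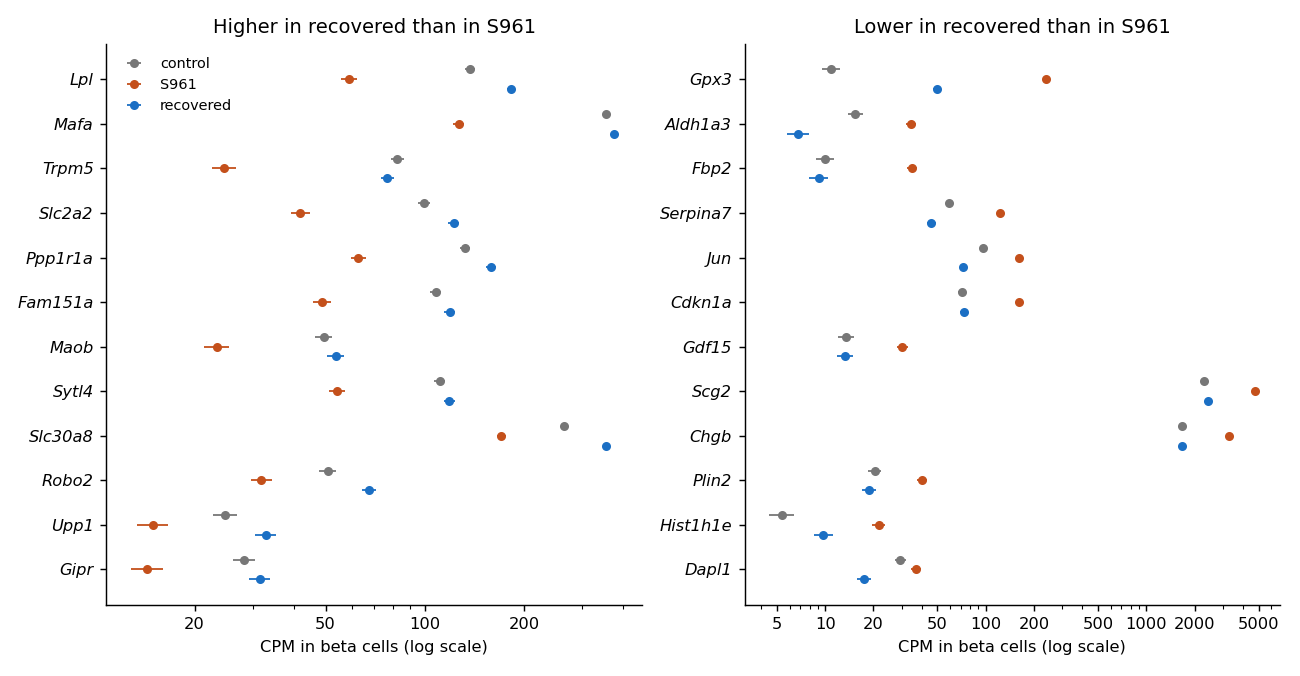
CPM in beta cells (log axis) of control, S961 and recovered libraries for the 12 named genes with the highest and the 12 with the lowest ratios; bars are exact Poisson 95% intervals. In the left panel the S961 point is the lowest of the 3 for each gene, and in the right panel it is the highest.

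Genes of the immature state or normally silenced in adult beta cells were lower in 8 of 14 measured members and higher in 1, with a median of -0.98. Over all measured genes 2.82% were lower and 3.11% higher. The list was chosen with earlier results of these data known, so its count is a description and not a test. A further 18 of the 32 listed had too few UMIs. Aldh1a3, a retinaldehyde dehydrogenase and mark of dedifferentiated beta cells, was at 15.4 CPM in control, 34.3 in S961 and 6.79 in recovered cells. Its level was 5.05-fold (4.24 to 6.05) higher in S961 than in recovered, and recovered also lay below control. Serpina7, which encodes the thyroxine carrier, was at 59.4, 122 and 45.8 CPM (-1.42). The gut peptide genes Cck and Gast, which adult mouse beta cells rarely use, held 392 and 127 UMIs in S961 against 77 and 37 in recovered (-2.36 and -1.79). Neurog3, the endocrine progenitor factor, held 68 and 32 UMIs (-1.10), at 16.1 and 17.1 CPM in the other cells against 3.05 and 1.43 in beta cells.

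Gc, the vitamin D carrier and also an alpha-cell marker, was at 81.0, 232 and 85.8 CPM (-1.43, -1.51 to -1.36) in control, S961 and recovered. It stood at -1.39 without the cells carrying other cell types' RNA, which were chosen partly on Gc. Cd81 was at 191 against 105 CPM (-0.86). Vim, an intermediate filament gene of mesenchymal cells, was at 11.6 against 1.47 CPM (-2.98), but at -0.20 without those cells, and its level in the other cells was 719 and 407 CPM. Maob, a member of this list as well, was the higher one. Without the cells carrying other cell types' RNA, 5 of 11 members were lower and 2 higher, with a median of -0.28, which is smaller than in all cells. Aldh1a3 (-2.37), Serpina7 (-1.37), Cck (-2.09), Gast (-1.95) and Neurog3 (-2.07) had ratios past 1.5-fold there, Gast and Neurog3 with UMIs under the minimum.

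The list of cell cycle inhibitors and senescence genes had 3 of 27 measured members lower and none higher, with a median of -0.20. Cdkn1a, which encodes p21, was at 70.7 CPM in control, 161 in S961 and 73.1 in recovered cells, 2.20-fold (2.07 to 2.33) more in S961 than in recovered. The recovered and control levels were close, and S961 was the high library. Phlda3, a p53 target that restrains Akt, was at 7.56, 19.3 and 5.99 CPM (-1.69). Plk2, a stress-responsive kinase, was at 8.05, 7.23 and 4.33 CPM (-0.74), with control above S961, and at -0.32 without the cells carrying other cell types' RNA. Plk2 was at -0.15 among cells with 4 to 7% mitochondrial UMIs. The p53 targets Ccng1 (-0.54) and Bbc3 (-0.45) were neither, but with thinned cells both were lower (-0.61 and -0.72), where 5 of 25 members were lower. Ccng1 was also lower without the cells carrying other cell types' RNA (-0.64), and Bbc3 among cells with 4 to 7% mitochondrial UMIs (-0.75). Bax (-0.24), Mdm2 (-0.16) and Zmat3 (-0.12) were neither, and Trp53 itself was at 0.09.

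The other inhibitors did not share the ratio of Cdkn1a. Cdkn1b, which encodes p27, was at 36.8, 59.2 and 48.8 CPM (-0.28), and Cdkn2b, which encodes p15, at 11.7, 13.5 and 14.97 CPM (0.15, -0.08 to 0.38). Cdkn2a, which encodes p16, was under the minimum, with 14, 15 and 40 UMIs in control, S961 and recovered, a ratio of 1.41 with the wide interval 0.52 to 2.37. Its ratio was above 0 but rested on few UMIs. Among 14 measured cell division genes, 1 was higher and 1 lower: Tuba1b, an alpha tubulin that nondividing cells also use, at 51.9, 23.3 and 43.4 CPM (0.90), and Stmn1 at 7.91 against 5.23 CPM (-0.60). Stmn1 stood at -0.57 with thinned cells, -0.19 without the cells carrying other cell types' RNA and 0.21 among cells with 4 to 7% mitochondrial UMIs. The proliferation marker Mki67 was under the minimum, with 19, 54 and 23 UMIs in control, S961 and recovered (-1.24, -2.01 to -0.51).

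Of the 42 secreted factors associated with senescence, 16 were measured; 7 were lower and none higher, and the median was -0.48. Gdf15, a stress-induced cytokine, was at 13.4, 30.3 and 13.3 CPM (-1.19, -1.39 to -0.99), and at -1.37 without the cells carrying other cell types' RNA. The IGF-binding protein gene Igfbp3 was at 16.4 against 2.73 CPM (-2.59) and Inhba, an activin subunit, at 7.05 against 1.61 CPM (-2.13), with 773 and 561 CPM of Igfbp3 and 91.8 and 13.4 CPM of Inhba in the other cells. Igfbp5 was at -1.28 in all beta cells and at 0.86 without the cells carrying other cell types' RNA. The other lower members were Plat (-0.99), Tnfrsf12a (-0.67) and Spp1, osteopontin, at 637 against 422 CPM (-0.59). Without those cells, 3 of 14 members were lower and 1 higher, with a median of -0.19, and Spp1 was at -0.51. Among cells with 4 to 7% mitochondrial UMIs Spp1 (-0.45) and Tnfrsf12a (-0.26) were under 1.5-fold. The cytokine genes Il1b (0.24, -0.08 to 0.57) and Cxcl16 (0.07, -0.36 to 0.49) had intervals that spanned 0.

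Gpx3, a secreted glutathione peroxidase, ranked first by the interval bound nearest 0 among the 12 named lower genes, from which markers of other cell types and genes far more abundant in other cells had been left out. It was at 10.9 CPM in control, 237 in S961 and 49.5 in recovered cells, 4.79-fold (4.49 to 5.11) more in S961 than in recovered. The recovered level lay between both others, and no interval overlapped. Its level in the other cells was 337 and 271 CPM. Without the cells carrying other cell types' RNA the ratio was -2.62, larger than -2.26 in all cells. Gpx3 lies on chromosome 11 from 54902453 to 54910377. In the list of metal binding and oxidative defence, 3 of 40 measured members were lower and 1 higher, and the median was -0.08. Prdx4, a peroxiredoxin of the endoplasmic reticulum, was at 29.1, 50.4 and 27.5 CPM (-0.87), and Cat, catalase, held 97 and 58 UMIs (-0.75). Mt2, a metallothionein that binds zinc and copper, was at 440, 130 and 229 CPM (0.82, 0.75 to 0.88), and Mt1 at 1529, 650 and 832 CPM (0.36). Both metallothioneins stayed below control after recovery. Mt1 was higher (0.73) and Prdx4 under 1.5-fold (-0.53) among cells with 4 to 7% mitochondrial UMIs. The glutathione peroxidases Gpx1 (-0.28), Gpx2 (-0.36) and Gpx4 (-0.15) were neither, as were the NRF2 targets Nqo1 (0.13), Hmox1 (0.15) and Srxn1 (-0.04).

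Stress pathways of protein folding differed little. Of 39 measured genes of endoplasmic reticulum chaperones and the unfolded protein response, 1 was higher and 1 lower, and the median was 0.14. The main chaperone Hspa5 was at 1283, 900 and 1032 CPM (0.20), and Calr, calreticulin, at 943, 548 and 769 CPM (0.49), each between S961 and control. Wfs1, whose loss causes Wolfram syndrome, was at 72.0, 46.9 and 73.0 CPM (0.64), but at 0.56 without the cells carrying other cell types' RNA, and Derl3 was the lower member (-0.67), at -0.47 in those cells. Among cells with 4 to 7% mitochondrial UMIs Wfs1 (0.48) and Derl3 (-0.56) were also under 1.5-fold. No gene of the 34 measured ATF4 targets passed 1.5-fold either way (median -0.01), with Ddit3, the stress factor CHOP, at 219, 129 and 157 CPM (0.28), Asns at -0.06 and Trib3 at -0.20. Of 21 heat shock chaperone genes, Hspb8 was lower (-0.84) and the rest were neither, with Hspa1a at 0.26 and Hspa1b at 0.37. Hspb8 was at -0.44 and Hspa1b was higher (0.73) among cells with 4 to 7% mitochondrial UMIs.

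Immediate early genes, which respond within minutes to calcium, growth factors or dissociation, were split, with 4 of 25 measured higher and 4 lower. Jun was at 95.9, 162 and 72.6 CPM (-1.16, -1.24 to -1.07), below control after recovery, and its level in other cells was 464 and 386 CPM. Ier3 (22.8 against 11.4 CPM), Dusp6 (-0.93) and Klf4 (-0.69) were the other lower members, of which Ier3 stood at -0.50 and Dusp6 was under the minimum of UMIs without the cells carrying other cell types' RNA. The higher ones were Npas4, induced by calcium influx, at 2.25 against 5.85 CPM (1.38), the clock gene Per1 at 6.06 against 12.9 CPM (1.09), and the nuclear receptors Nr4a2 (0.73) and Nr4a1 (0.68). With thinned cells Nr4a1 and Nr4a2 stood at 0.46 and 0.47, under 1.5-fold, as did Nr4a2 among cells with 4 to 7% mitochondrial UMIs (0.54). Fos (-0.30), Egr1 (-0.09) and Junb (-0.05) were neither.

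Interferon-stimulated and antigen presentation genes were higher in 5 of 33 measured members and lower in 2, with a median of 0.08. Ifit3, an antiviral gene, held 69 UMIs in S961 and 220 in recovered cells, a log2 ratio of 1.66 (1.27 to 2.08) at 4.36, 3.10 and 9.83 CPM in control, S961 and recovered. Irf7, a regulator of interferon genes, was at 11.03, 5.93 and 12.4 CPM (1.07), Oasl2 at 5.25, 4.31 and 8.44 CPM (0.97), and Ifit1 at 12.7, 10.7 and 18.8 CPM (0.81). B2m, the light chain of MHC class I, was at 47.6, 23.5 and 42.8 CPM (0.86, 0.71 to 1.02), against 310 and 413 CPM in other cells. These 5 were also at least 1.5-fold higher without the cells carrying other cell types' RNA, at 0.71 to 1.13, and with thinned cells. Ifit1 stood at 0.46, under 1.5-fold, among cells with 4 to 7% mitochondrial UMIs. The class I heavy chains H2-K1 (0.21) and H2-D1 (-0.12) and the factor Irf1 (0.08) were neither. Cd74, an MHC class II chaperone of immune cells, and Ifitm3 were lower in all cells (-3.02 and -2.34), and stood at -0.24 and -1.06 without the cells carrying other cell types' RNA. That value of Ifitm3 rested on UMIs under the minimum. Cd74 stood at 1.55 among cells with 4 to 7% mitochondrial UMIs, also with UMIs under the minimum.

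Ifit3 and B2m are shown with their promoters as examples from the 5 higher interferon-related members. Windows of the other list members were not examined one by one. Both windows hold the core of the interferon-stimulated response element (ISRE, GAAA, any 2 bases and GAAA again, on either strand). For both genes, bases after the RefSeq start also occur in a GENCODE M21 transcript. The 250 bases before the RefSeq start (GRCm38.p6) are chr19:34583279-34583528 for Ifit3 and chr2:122147437-122147686 for B2m, both on the plus strand, with matches in capitals. Ifit3 has 2 matches, beginning 156 and 122 bases before the start, and B2m has 1, beginning 139 bases before.
Ifit3: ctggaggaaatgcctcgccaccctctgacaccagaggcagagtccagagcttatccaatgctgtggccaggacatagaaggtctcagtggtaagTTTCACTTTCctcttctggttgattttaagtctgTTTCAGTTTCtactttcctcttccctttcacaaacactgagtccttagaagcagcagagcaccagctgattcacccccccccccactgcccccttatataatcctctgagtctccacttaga
B2m: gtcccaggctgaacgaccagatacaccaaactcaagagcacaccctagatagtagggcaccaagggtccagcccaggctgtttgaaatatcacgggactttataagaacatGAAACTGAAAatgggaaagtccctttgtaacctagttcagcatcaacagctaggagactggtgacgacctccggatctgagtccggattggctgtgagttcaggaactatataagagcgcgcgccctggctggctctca
Ifit1 also had 2 matches, and the windows of Irf7 and Oasl2 had 0. The latter says only that these letters are not in the window. The motif was held by 2.98% of all RefSeq promoters, and of genes 2.90% of those measured, 4.60% (11 of 239) of the higher and 4.02% (9 of 224) of the lower ones.

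Genes of insulin and IGF signalling, the pathway that S961 blocks at its receptor, differed little: 2 of 31 measured members were higher and none lower, and the median was 0.15. The insulin receptor Insr was at 17.2, 19.5 and 18.99 CPM (-0.03, -0.23 to 0.16), and its substrate Irs2 at 30.7, 33.2 and 29.8 CPM (-0.16, -0.31 to -0.00). Igf1r, the related IGF receptor, was at 366, 259 and 318 CPM (0.30, 0.25 to 0.35). The higher members were Insrr, an insulin-receptor-related receptor, at 31.7, 35.7 and 55.0 CPM (0.63), and the coactivator Ppargc1a, with 37 and 77 UMIs (1.05). Insrr stood at 0.39 with thinned cells, at 0.13 among cells with 4 to 7% mitochondrial UMIs and at 0.45 without the cells carrying other cell types' RNA. Foxo1, the transcription factor held back by insulin signalling, was at 0.37 and Foxo3 at 0.26.

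In the prolactin axis, which drives beta-cell growth in pregnancy, the receptor Prlr was at 208, 149 and 249 CPM (0.74, 0.68 to 0.80), above control after recovery. With thinned cells it stood at 0.57 and among cells with 4 to 7% mitochondrial UMIs at 0.55, both just under 1.5-fold. The STAT5 targets Socs2 (0.29) and Cish (0.23) and the factors Stat5a (0.48) and Stat5b (0.13) were neither, though Cish was at 0.72 among cells with 4 to 7% mitochondrial UMIs. Of its 16 measured members, 1 was higher and 1, Chgb, lower.

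The metabolic lists differed in how many genes were called, beside 3.11% higher and 2.82% lower over all measured genes. The called shares of ChREBP and glucose-induced genes lay above these in both directions. Of 24 measured ChREBP and glucose-induced genes, 4 were higher and 2 lower (median 0.11). Acly, which makes acetyl-CoA for lipid synthesis, was at 981, 649 and 1022 CPM (0.66), Scd2, a fatty acid desaturase, at 54.3, 35.2 and 55.7 CPM (0.66), and Nr1d1, a clock repressor, at 6.38 against 11.5 CPM (0.85). The lower members were Thrsp (-1.17) and Rgs16 (-0.99), both glucose-induced in islets. Txnip, a strongly glucose-induced gene, was at 33.4, 60.5 and 47.1 CPM (-0.36), between the others after recovery. Scd2 stood at 0.44 with thinned cells, and Acly (0.58) and Scd2 (0.47) were under 1.5-fold without the cells carrying other cell types' RNA. Among cells with 4 to 7% mitochondrial UMIs Acly (0.45), Scd2 (0.45) and Nr1d1 (0.40) were under it.

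In glycolysis and HIF targets, 1 of 34 measured members was higher and 4 lower (median -0.12). Fbp2, a fructose bisphosphatase of muscle, was at 10.0, 34.6 and 9.11 CPM (-1.92), 3.80-fold (3.25 to 4.45) more in S961 than in recovered. Egln3 (-0.84), Slc16a3 (-0.82) and Pfkfb3 (-0.67) were the other lower members, and Pfkfb2, an enzyme that sets the level of a glycolytic activator, was higher at 21.6, 11.1 and 20.9 CPM (0.91). Of these, Egln3 (-0.53) and Pfkfb3 (-0.38) were under 1.5-fold with thinned cells and Slc16a3 (-0.45) without the cells carrying other cell types' RNA. Among cells with 4 to 7% mitochondrial UMIs Egln3 (-0.37), Slc16a3 (-0.56) and Pfkfb2 (0.33) were under it, while Fbp2 was lower in all 3 alternatives. Ldha, usually silenced in beta cells, was at -0.45. None of the 59 measured nuclear-encoded genes of the respiratory chain passed 1.5-fold (median 0.12), with Ndufa1 lowest at -0.52. Cholesterol synthesis and transport had 1 higher gene and 1 lower, Star, a mitochondrial cholesterol carrier at 7.34, 24.0 and 13.8 CPM (-0.80), of 30. Star stood at -0.35 among cells with 4 to 7% mitochondrial UMIs, where no gene of the list was lower. Plin2, a lipid droplet coat protein outside these lists, was at 20.3, 40.1 and 18.8 CPM (-1.09), with 312 CPM in the other S961 cells.

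Structural genes closed the comparison. Of 24 measured cytoskeleton genes, the alpha tubulins Tuba1a (133, 65.7 and 110 CPM, 0.75), Tuba4a (0.65) and Tuba1b were higher and Stmn1 lower, while the actins Actb (-0.12) and Actg1 (-0.05) were neither. Tuba4a stood at 0.58, just under 1.5-fold, with thinned cells and without the cells carrying other cell types' RNA. Of 19 measured histone genes with polyadenylated transcripts, 1 was higher and 3 lower. The linker histone Hist1h1e was at 5.38, 21.6 and 9.74 CPM (-1.15, -1.38 to -0.91), between the others after recovery. Dapl1 was at 29.4, 36.7 and 17.4 CPM (-1.08), below control after recovery. Crybb3, a lens crystallin found in beta cells, was at 475, 157 and 204 CPM (0.38) and stayed below control.

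**Figure D4:**
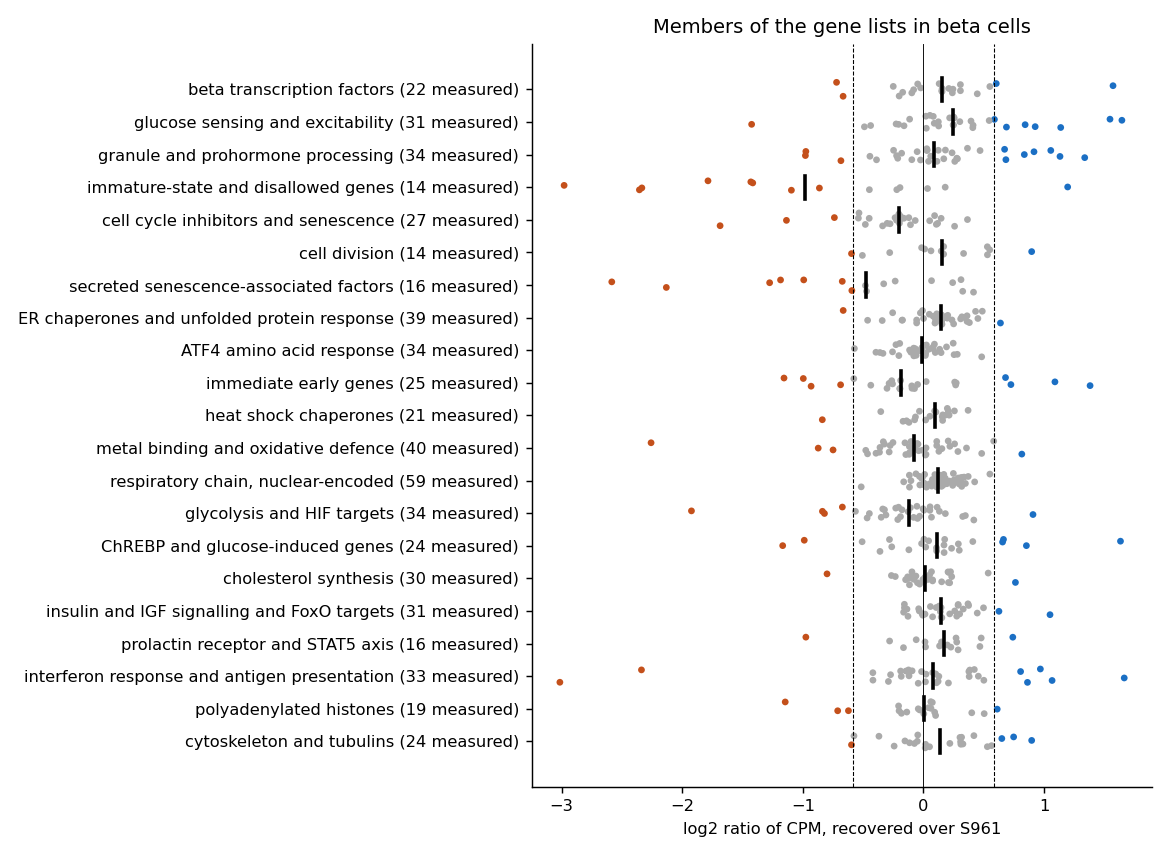
Log2 ratio of CPM, recovered over S961, of each measured member (points) of the 21 gene lists, with the median as a black bar; colours mark at least 1.5-fold higher or lower, and dashed lines that fold. Medians run from -0.98 for immature-state and disallowed genes to 0.25 for glucose sensing and excitability.

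Because depth per cell differed, shares of cells were compared after each cell was thinned to 5000 UMIs, which kept 1127 S961, 1892 recovered and 2350 control beta cells and left out 432, 171 and 496. A Mafa UMI was found in 38.0% of S961 cells (35.1 to 40.9, exact Clopper-Pearson), 66.0% of recovered (63.8 to 68.1) and 67.2% of control cells. In the other cells of these libraries, 1300, 542 and 316 at the same depth, the shares were 1.85%, 11.4% and 15.8%. Before thinning, the beta shares of Mafa were 52.0%, 79.7% and 72.9%. Slc2a2 was in 19.3% of S961, 37.6% of recovered and 33.7% of control beta cells, Trpm5 in 11.3%, 30.3% and 30.9%, and Sytl4 in 21.9%, 41.2% and 40.3%. In the other cells these 3 genes were found in at most 1.38% in S961, 6.09% in recovered and 8.86% in control. The share of cells with these RNAs was thus higher in recovered than in S961 at equal depth, and the intervals did not overlap.

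Among lower genes, Aldh1a3 was in 11.003% of S961 cells (9.23 to 12.98), 2.48% of recovered (1.83 to 3.29) and 5.96% of control cells, against 2.85%, 2.58% and 3.80% of the other cells. The control share was therefore above that of the other control cells. The recovered share was near that of the other recovered cells, whose 2.58% lay within its interval. Serpina7 was in 29.3%, 13.3% and 20.1% of S961, recovered and control beta cells, against 4.38%, 5.17% and 8.54% of the others, and Fbp2 in 9.67%, 3.54% and 4.04%, against 2.08%, 1.66% and 0.633%. Cdkn1a was in 40.6% of S961 cells (37.8 to 43.6), 26.2% of recovered (24.2 to 28.2) and 22.6% of control cells, and Gpx3 in 54.4%, 11.6% and 4.77%. The other cells, a mixture of types, held Cdkn1a in 39.0%, 29.2% and 36.4% and Gpx3 in 55.8%, 64.4% and 58.5%. The beta share of Gpx3 was at or below that of the others in every library, as was that of Jun (43.1%, 23.6% and 28.1% against 69.2%, 62.5% and 66.1%), so these shares alone do not tell beta-cell RNA from RNA of other cells.

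Scg2 and Chgb were found in at least 98.6% of thinned beta cells of every library, so their difference lay in UMIs per cell and not in the share of cells. The mean at 5000 UMIs was 23.1 UMIs of Scg2 in S961, 11.4 in recovered and 11.2 in control cells, and 16.2, 7.99 and 8.37 UMIs of Chgb. Cdkn2a was in 0.266% of S961 (0.0549 to 0.776), 1.00% of recovered (0.606 to 1.56) and 0.213% of control beta cells, with 0.462%, 0.369% and 0.316% in the other cells. The S961 and control shares lay below those of the other cells and the recovered share above, with overlapping intervals of S961 and recovered and few cells behind each share. Mki67 was in 1.06%, 0.370% and 0.468% of beta cells, against 0.615%, 1.29% and 0.633% of the others.

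**Figure D5:**
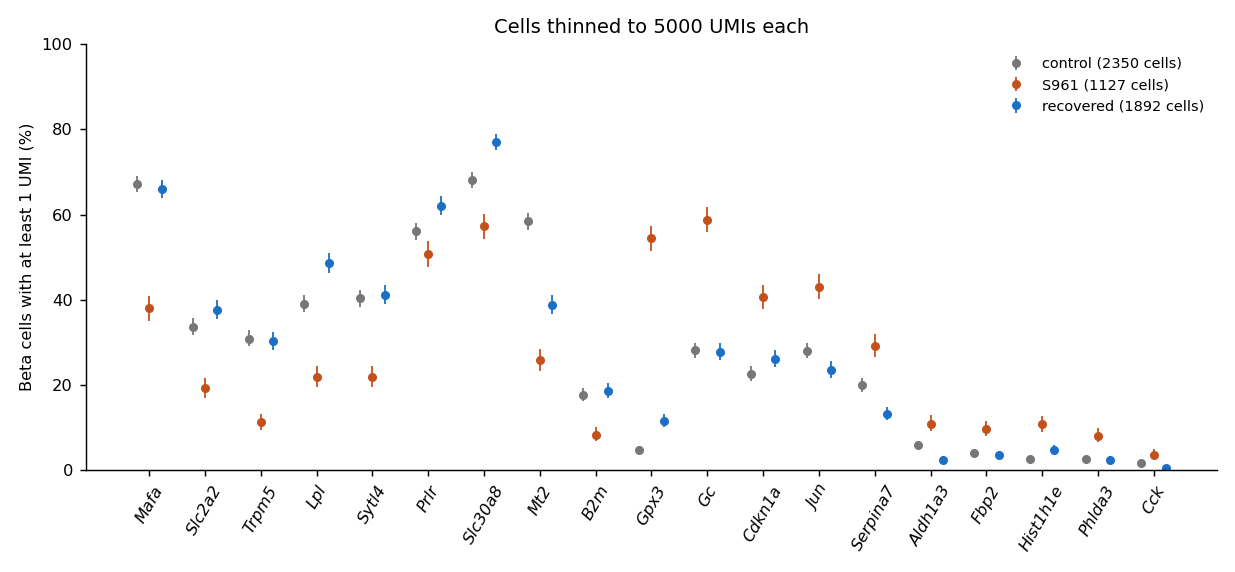
Share of beta cells (%) with at least 1 UMI of each gene after thinning to 5000 UMIs per cell, for 2350 control, 1127 S961 and 1892 recovered cells; bars are exact Clopper-Pearson 95% intervals. Mafa stands at 67.2%, 38.0% and 66.0%, and Gpx3 at 4.77%, 54.4% and 11.6%, in control, S961 and recovered.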

How the data were processed

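The authors deposited counts: UMIs per gene and barcode, whole and not normalized, for 31053 genes and 24590 barcodes. The submitters' processing notes name Cell Ranger (version not given in the sources used here) and mm10. Libraries were told apart by the labelled barcode suffix. No barcode held under 500 UMIs. The control, S961 and recovered libraries held 38265969, 47651767 and 40102058 UMIs.

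Beta cells were chosen by thresholds on each barcode. Their UMIs were summed and scaled to CPM. Log2 ratios carry exact conditional binomial (Clopper-Pearson) 95% intervals. A gene was measured at 100 UMIs over the S961 and recovered libraries and called at 1.5-fold. With 1 library per group no test was made; whether a library holds 1 mouse or several is not stated. Thinning drew 5000 UMIs per cell without replacement; the script was tested on simulated data.

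Named genes were the 12 highest and 12 lowest ratios by the interval bound nearest 0, among 5028 genes with at least 200 UMIs and 20 CPM in the higher library. Mitochondrial, ribosomal, unnamed and rule genes and other cells' markers were left out. So were 5 lower genes under 10% of their level in other cells (Reg2, Sycn, Fabp4, Apoe and Pnliprp1). A further 36 key genes were always given. Members and lists were chosen with earlier results of these data known. Some genes were chosen for the text after their values were seen: list members past 1.5-fold, and examples of the rest.

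Doublets were not removed. As an alternative, Scrublet in scanpy 1.11.5 was run with an expected doublet rate of 0.06. It called 77 of 3507 S961 (2.20%), 22 of 3537 recovered (0.62%) and 4 of 4270 control cells (0.09%). The control calls were too few to have worked there and the recovered calls were few, so this alternative did not remove doublets evenly. Coordinates are from GENCODE M21, in which 30464 genes had an entry and 30416 had exactly 1. They were taken only for genes with exactly 1 entry, which Ddit3 did not have. Members of the tubulin, histone, metallothionein and Ifit families are near copies, so their split is uncertain. Promoters are RefSeq's (GRCm38.p6); Mafa has no entry. Python 3.11.15, numpy 2.4.6, scipy 1.17.1, pandas 2.3.3 and matplotlib 3.10.9 were used. Some genes of the lists are not reported here.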

Additional observations from a re-analysis of the deposited data

How the results depend on the processing

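The count of higher genes, 335 in the report, was 196 with median-of-ratios scaling, 1187 when the CPM of single cells were averaged (which moved the median of all genes by 0.11), 599 with cells thinned to 2000 UMIs, 1071 with no minimum of UMIs and 143 among cells with 4 to 7% mitochondrial UMIs. It was 1590 at the lower fold minimum tried and 53 at 2-fold. The count of lower genes, 303 in the report, was 107 with cells thinned to 2000 UMIs, 483 and 185 with minimums of 50 and 200 UMIs, 1785 with no minimum, 828 at the lower fold minimum and 117 at 2-fold. An alternative chosen after seeing the data, at least 2000 genes per cell, gave 220 higher and 343 lower genes. The same limit joined with leaving out cells that carry other cell types' RNA, a combination also chosen after seeing the data, gave 205 and 266. Thinned to 5000 UMIs, 142 of the 274 higher and 114 of the 203 lower genes were also called in all cells. Of 1080 values of named genes under alternatives, 801 lay within the counting interval of the reported value and 278 outside it. Among the 60 named genes 1 past 1.5-fold changed sign: Stmn1, at 0.21 among cells with 4 to 7% mitochondrial UMIs. Of the list members outside them, Npy, Igfbp5 and Cd74 changed sign as the report gives, Cd74 with UMIs under the minimum in that alternative. Of 441 list medians under alternatives, 35 moved by more than the typical interval reach of the list's genes. The causes were not tested. No paired analysis was possible because each group had 1 library and the labels give no replicate numbers; leaving out a replicate was likewise not possible.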
